A study of Mus musculus with 4 samples.

Results

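The genes described here are 10 that act in the recognition and engulfment of dying cells: the receptors *Mertk*, *Axl*, *Tyro3*, *Scarb1*, *Stab1* and *Megf10*, the bridging factors *Gas6* and *Pros1*, and the signalling partners *Elmo1* and *Dock1*. They were chosen by symbol, and all 10 symbols were found among the 55357 features of the count matrices. The data were single-nucleus RNA-seq libraries from whole testes of 8-week-old male mice, prepared with a droplet kit that tags the 3′ end of each transcript and counts molecules as unique molecular identifiers (UMIs). There were 2 wild-type (WT) libraries and 2 libraries from *Dhx37*-/- mice, which carried *Dhx37* flox/flox and AMH-Cre, and the labels name each as a biological replicate. AMH-Cre is driven by the promoter of the anti-Müllerian hormone gene and acts in Sertoli cells, so by design *Dhx37* was left intact in the other cell types, and the WT animals were littermates. The design asked how loss of *Dhx37*, an RNA helicase of ribosome assembly, in Sertoli cells changed the cells of the testis.

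Most germ cells that die during spermatogenesis are removed inside the seminiferous tubule by Sertoli cells, the somatic nurse cells of the germline, which also take up the residual bodies that spermatids shed. Dying cells expose phosphatidylserine on their surface. GAS6 and protein S (*Pros1*) bind it and bridge it to TYRO3, AXL and MERTK, the TAM family of receptor tyrosine kinases, while SR-BI (*Scarb1*), stabilin-1 (*Stab1*) and MEGF10 are receptors of other families. ELMO1 and DOCK1 together activate the small GTPase Rac, which drives the actin movement that closes the phagocytic cup. Macrophages of the interstitium, the tissue between the tubules, use many of the same molecules.

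Nuclei were placed in classes by counts of fixed marker genes, none of which is among the 10 genes. This gave 483 Sertoli, 446 macrophage, 980 Leydig, 490 fibroblast, 174 peritubular myoid, 879 spermatocyte, 4272 round spermatid and 7481 elongating spermatid nuclei in the tested classes, and 20987 of the nuclei kept (56.9%) stayed in no class. By library there were 59 and 19 (WT) and 158 and 247 (*Dhx37*-/-) Sertoli nuclei, so WT Sertoli values, and those of WT replicate 2 above all, rest on few nuclei. The libraries kept 8268 to 10004 nuclei with a median of 3317.5 to 4162 UMIs each, and any pair of libraries shared 19 to 29 barcodes. Free RNA, estimated from droplets without a nucleus, made up 6.37% to 10.4% of the UMIs of Sertoli nuclei and 14.4% to 28.6% of those of macrophage nuclei. *Dhx37* itself had 4 and 3 UMIs in WT and 15 and 15 in *Dhx37*-/- Sertoli nuclei, and counts at the 3′ end lie outside the deleted exon and check nothing. Sertoli nuclei carried *Wt1*, a transcription factor of Sertoli cells, but *Amh* was at 0 to 1.99 CPM. CPM, the measure of level used throughout, is the number of UMIs of a gene per 1000000 UMIs of the class in a library.

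Sertoli nuclei differed from the other somatic classes in 8 of the 9 genes that passed the filter on low counts. *Axl*, *Tyro3*, *Pros1*, *Scarb1*, *Elmo1* and *Dock1* were higher, *Gas6* and *Stab1* were lower, and *Mertk* did not pass the test. *Megf10* was too low to be tested. *Tyro3* passed the filter through its Sertoli sums and *Stab1* through its macrophage sums. Both are in the counts and medians of the 9 genes, here and in the class comparisons below, but their calls are not read as results. Across all 16889 genes 43.0% passed in either direction, 22.1% as higher and 20.9% as lower. The median log2 fold change was 1.02 over the 9 genes and -0.18 over all genes. In each such comparison UMIs were summed per library and class, and edgeR's quasi-likelihood test, two-sided and adjusted over all genes by Benjamini-Hochberg, set one class against the mean of the remaining 4 somatic classes, with a call at an adjusted p under 0.05. Levels in CPM are given for WT replicates 1 and 2 and then *Dhx37*-/- replicates 1 and 2. All tested classes were fitted together with library as a term. The p-values measure only how class differences spread from library to library among these libraries.

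The promoters of the 3 TAM receptors and of *Stab1* are shown because the levels of these receptors set Sertoli and macrophage nuclei apart. Each line is the 250 bases before the RefSeq transcript start in build GRCm38.p6, read 5′ to 3′ on the gene's strand, with capitals marking the GC box (GGGCGG), the core of the site read by the myeloid factor PU.1 (GAGGAA) and the core of the site read by SOX factors (AACAAT), on either strand.
Mertk, chr2:128698665-128698914, plus strand: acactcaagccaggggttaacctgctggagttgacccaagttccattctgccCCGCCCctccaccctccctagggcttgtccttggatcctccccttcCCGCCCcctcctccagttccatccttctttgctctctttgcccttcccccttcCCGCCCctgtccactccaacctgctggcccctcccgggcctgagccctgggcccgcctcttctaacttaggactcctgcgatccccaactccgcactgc
Axl, chr7:25788734-25788983, minus strand: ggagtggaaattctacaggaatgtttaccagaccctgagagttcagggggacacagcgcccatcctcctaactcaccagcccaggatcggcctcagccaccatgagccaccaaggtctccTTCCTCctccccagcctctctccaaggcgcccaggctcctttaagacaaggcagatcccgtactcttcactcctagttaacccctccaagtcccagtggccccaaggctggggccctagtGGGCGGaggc
Tyro3, chr2:119799264-119799513, plus strand: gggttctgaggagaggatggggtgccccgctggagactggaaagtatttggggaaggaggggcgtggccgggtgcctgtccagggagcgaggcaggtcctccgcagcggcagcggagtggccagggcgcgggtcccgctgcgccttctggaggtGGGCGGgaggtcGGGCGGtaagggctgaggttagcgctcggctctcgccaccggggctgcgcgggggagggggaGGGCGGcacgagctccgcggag
Stab1, chr14:31168642-31168891, minus strand: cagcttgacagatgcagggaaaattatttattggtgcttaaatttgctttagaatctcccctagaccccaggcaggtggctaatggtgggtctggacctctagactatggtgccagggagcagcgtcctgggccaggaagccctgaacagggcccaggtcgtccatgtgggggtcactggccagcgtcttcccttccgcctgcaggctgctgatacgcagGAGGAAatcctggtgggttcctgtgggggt
The *Mertk* and *Tyro3* windows hold 3 GC boxes each, the *Axl* window holds 1 GC box and 1 PU.1 core, and the *Stab1* window holds 1 PU.1 core and no GC box. None of the 4 windows holds a SOX core. Of the 32851 mouse promoters of this length, 32.7% hold a GC box, 23.3% a PU.1 core and 9.42% a SOX core, and these letter matches are a description only. RefSeq entries were found for 8 of the 10 genes, and *Scarb1* and *Megf10* were not matched.

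Sertoli nuclei carried transcripts of each TAM receptor, while macrophage nuclei carried *Mertk* and *Axl* with at most 2 UMIs of *Tyro3* in a library. *Mertk*, the TAM receptor best known from phagocytes, stood at 269, 238, 254 and 280.0 CPM in Sertoli nuclei and at 763, 593, 707 and 644 CPM in macrophage nuclei. The lowest macrophage library was above the highest Sertoli library, and the Sertoli libraries lay close together. Leydig nuclei, which make testosterone, ran from 143 to 357 CPM, fibroblasts from 128 to 185 CPM and peritubular myoid cells, the contractile cells around the tubule, from 72.2 to 135 CPM. In the order macrophage, Sertoli, Leydig, fibroblast and myoid, only macrophages were apart from their neighbour. Macrophages were higher than the other somatic classes (log2 fold change 2.07, SE 0.20, adjusted p = 9.50e-12), and for Sertoli nuclei the same contrast gave a log2 fold change of 0.27 (95% interval -0.18 to 0.71, adjusted p = 0.341). In that macrophage contrast 5 of the 9 tested genes were higher and none lower, where 38.4% of all genes were called, 26.9% as higher and 11.6% as lower, and the median log2 fold change was 0.94 over the 9 genes and 0.29 over all genes. *Scarb1*, at -0.37 there (adjusted p = 0.276), passed as lower in 5 of 13 alternatives, with -0.96 (adjusted p = 0.00267) without *Dhx37*-/- replicate 2.

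*Axl*, a TAM receptor that binds GAS6, was highest in Sertoli nuclei, at 169.5, 221, 178 and 168 CPM. Macrophages stood at 77.3, 67.0, 75.7 and 159 CPM, fibroblasts ran from 73.0 to 101 CPM and myoid cells from 44.8 to 120.4 CPM. Every Sertoli library was above every library of the other classes, while macrophages, fibroblasts and myoid cells overlapped. Leydig nuclei held 9, 3, 18 and 8 UMIs, or 3.63 to 9.50 CPM, and were lower than the other somatic classes (log2 fold change -3.67, SE 0.32, adjusted p = 8.16e-13). Sertoli nuclei were higher (log2 fold change 2.02, SE 0.21, adjusted p = 6.27e-11). The macrophage contrast also passed (log2 fold change 0.94, SE 0.24, adjusted p = 0.00195), but *Dhx37*-/- replicate 2 was the high macrophage library, and without it the log2 fold change was 0.16 (adjusted p = 0.678). It was 0.76 (adjusted p = 0.0594) without *Dhx37*-/- replicate 1.

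*Tyro3*, the third TAM receptor and one known to bind protein S, had nearly all of its somatic UMIs in Sertoli nuclei. Sertoli nuclei held 47, 14, 109 and 168 UMIs, or 93.7, 115, 92.7 and 80.4 CPM. Macrophages held 0, 0, 1 and 2 UMIs, Leydig nuclei 3, 0, 2 and 0, fibroblasts 4, 0, 0 and 1 and myoid cells none. No library of another class came near the Sertoli range. Pooled over libraries, 338 UMIs in Sertoli nuclei (86.9 CPM) stood against 13 in the other tested somatic classes (1.34 CPM), a ratio of 64.9 with an exact 95% interval of 37.4 to 123. Against macrophages alone, with 3 UMIs, the ratio was 42.7 (14.5 to 208). Such intervals cover counting error only. The contrast with the other somatic classes passed (adjusted p = 5.14e-17), but *Tyro3* was above the filter on low counts through its Sertoli sums. The counts, not this p-value, are therefore the result, and the same holds for its contrasts with macrophages and germ cells.

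**Figure D1:**
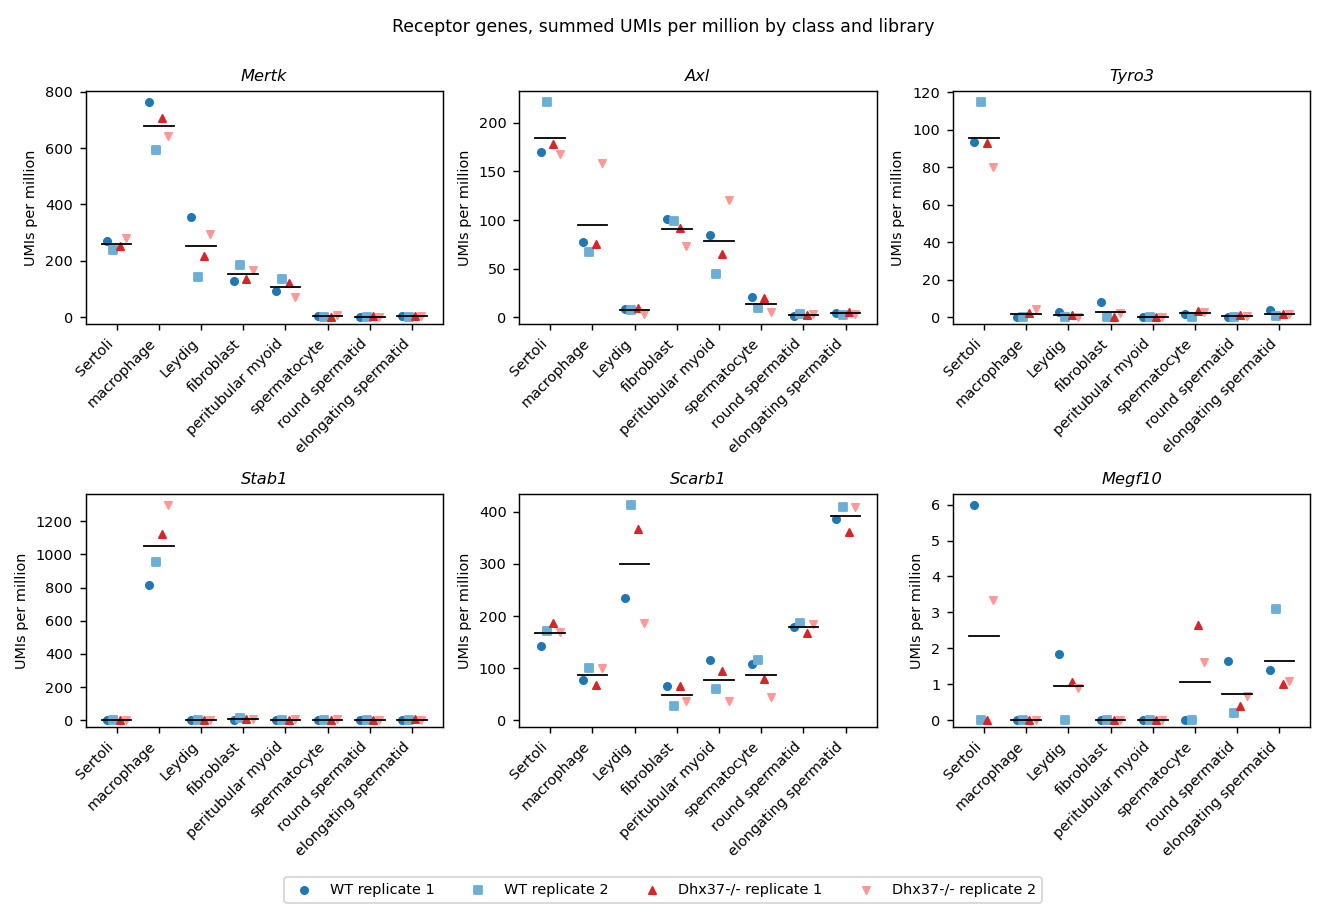
Levels of the receptor genes in CPM, one point per library, by class and genotype. Among the tested classes *Tyro3* lies near 0 outside the Sertoli class and *Stab1* near 0 outside macrophages, whereas *Mertk* is spread over all 5 somatic classes with macrophages on top.

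The bridging factors went apart, with *Pros1* highest in Sertoli nuclei and *Gas6* highest in myoid cells and macrophages. *Pros1*, which encodes protein S, stood at 343, 328, 232 and 248 CPM in Sertoli nuclei and at 239, 81.4, 121 and 99.8 CPM in macrophages. WT macrophage replicate 1 reached into the Sertoli range, just above the lowest Sertoli library, and the remaining macrophage libraries lay well below it. Leydig nuclei ran from 105 to 222 CPM and fibroblasts from 96.6 to 221 CPM, both overlapping with macrophages. Sertoli nuclei were higher than the other somatic classes (log2 fold change 1.33, SE 0.20, adjusted p = 2.64e-07) and myoid cells lower (log2 fold change -1.81, SE 0.29, adjusted p = 3.26e-06). Macrophages gave 0.03 (95% interval -0.42 to 0.47, adjusted p = 0.957). *Pros1* reached 12.8 to 18.6 CPM in elongating spermatids.

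*Gas6* was at 59.8, 98.3, 84.2 and 72.7 CPM in Sertoli nuclei, the lowest of the 5 tested somatic classes. Myoid cells stood at 304, 269, 274 and 385 CPM and macrophages at 361, 273, 241 and 277 CPM, and these classes overlapped each other and no other class. Leydig nuclei ran from 100.2 to 143 CPM and fibroblasts from 76.7 to 166 CPM. The Sertoli contrast was negative (log2 fold change -1.20, SE 0.23, adjusted p = 3.57e-05), and macrophages (log2 fold change 1.26, SE 0.20, adjusted p = 1.34e-06) and myoid cells (log2 fold change 0.84, SE 0.21, adjusted p = 0.00300) were higher.

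*Stab1*, a scavenger receptor of sinusoidal endothelium and of tissue macrophages, was highest among the tested classes in macrophages, at 818, 957, 1121 and 1297 CPM. Sertoli nuclei held 0, 0, 1 and 5 UMIs in the same libraries, and among the other tested classes no library was above the 13.5 CPM of a fibroblast library. Pooled counts were 1574 UMIs in macrophages (1068 CPM) and 31 in the other tested somatic classes (2.56 CPM), a ratio of 417 (exact 95% interval 293 to 616). Endothelial nuclei, too few to test, held 39 UMIs and are not part of this ratio. Against Sertoli nuclei alone, with 6 UMIs, the ratio was 692 (317 to 1889). The macrophage contrast passed (adjusted p = 2.26e-30), but *Stab1* was above the filter on low counts through its macrophage sums. The counts, not this p-value, are therefore the result, and the same holds for the direct contrast of Sertoli nuclei with macrophages. That also applies to the Sertoli, Leydig and myoid contrasts, since their comparison classes include macrophages. The Sertoli contrast also passed as lower (adjusted p = 0.00505), but *Dhx37*-/- replicate 2 held 5 of the 6 UMIs. Without it the log2 fold change was -3.36 beside a main -2.85, with an SE of 1371 and an adjusted p of 1, so that at 1 Sertoli UMI the fit gave no usable error.

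*Scarb1* encodes SR-BI, the receptor for high-density lipoprotein that also binds phosphatidylserine, and its levels followed a different order from the other genes. Elongating spermatids had 386, 409, 361 and 410.1 CPM and Leydig nuclei 235, 414, 367 and 186 CPM, and these 2 classes overlapped. Sertoli nuclei stood at 142, 172, 187 and 169 CPM and round spermatids ran from 167 to 186 CPM, again overlapping. Macrophages ran from 68.6 to 101 CPM and fibroblasts from 27.1 to 65.9 CPM. Leydig nuclei (log2 fold change 1.99, SE 0.20, adjusted p = 8.04e-11) and Sertoli nuclei (log2 fold change 0.85, SE 0.22, adjusted p = 0.00165) were higher than the other somatic classes. Free RNA held 134, 128, 78.8 and 91.6 CPM of *Scarb1*, more than for the other receptors, and made up 4.0% to 9.8% of its Sertoli level and 15% to 49% of its macrophage level.

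*Megf10*, a receptor known from glial phagocytosis, was close to absent from the counts. Sertoli nuclei held 3, 0, 0 and 7 UMIs, Leydig nuclei 2, 0, 2 and 2, and macrophages, fibroblasts and myoid cells held none. In elongating spermatids there were 6, 15, 6 and 7 UMIs. It did not pass the filter on low counts in the comparison of classes, and a difference between somatic classes was not detectable at this depth.

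*Elmo1* and *Dock1*, whose proteins form one complex, were not distributed alike. *Elmo1* stood at 2306, 1909, 1588 and 2121 CPM in Sertoli nuclei and at 1523, 1139, 1469 and 1714 CPM in macrophages. The 2 classes overlapped, and both lay above Leydig nuclei (319 to 589.9 CPM), fibroblasts (63.2 to 84.5 CPM) and myoid cells (0 to 85.0 CPM). Sertoli nuclei (log2 fold change 3.12, SE 0.20, adjusted p = 4.75e-17) and macrophages (log2 fold change 2.68, SE 0.21, adjusted p = 1.27e-14) were both higher than the other somatic classes. Fibroblasts (log2 fold change -3.00, SE 0.30, adjusted p = 5.75e-11) and myoid cells (log2 fold change -3.42, SE 0.33, adjusted p = 2.97e-11) were lower.

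*Dock1* was present throughout the tested somatic classes, at 792, 729, 715 and 789.7 CPM in Sertoli nuclei. Fibroblasts ran from 465 to 533 CPM, macrophages from 388 to 474 CPM, myoid cells from 254 to 524 CPM and Leydig nuclei from 229 to 437 CPM. The 4 Sertoli libraries lay above all of these, while each of the others overlapped its neighbour in the order. Of the classes too small to test, endothelial nuclei ran from 618 to 824 CPM, across the Sertoli range, and T cell nuclei held 1 UMI. The Sertoli contrast passed (log2 fold change 1.02, SE 0.16, adjusted p = 1.60e-06), whereas the macrophage contrast was 0.05 (95% interval -0.31 to 0.41, adjusted p = 0.854). With classes taken from clusters in place of marker counts, the macrophage contrast turned to -0.39 (adjusted p = 0.023).

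**Figure D2:**
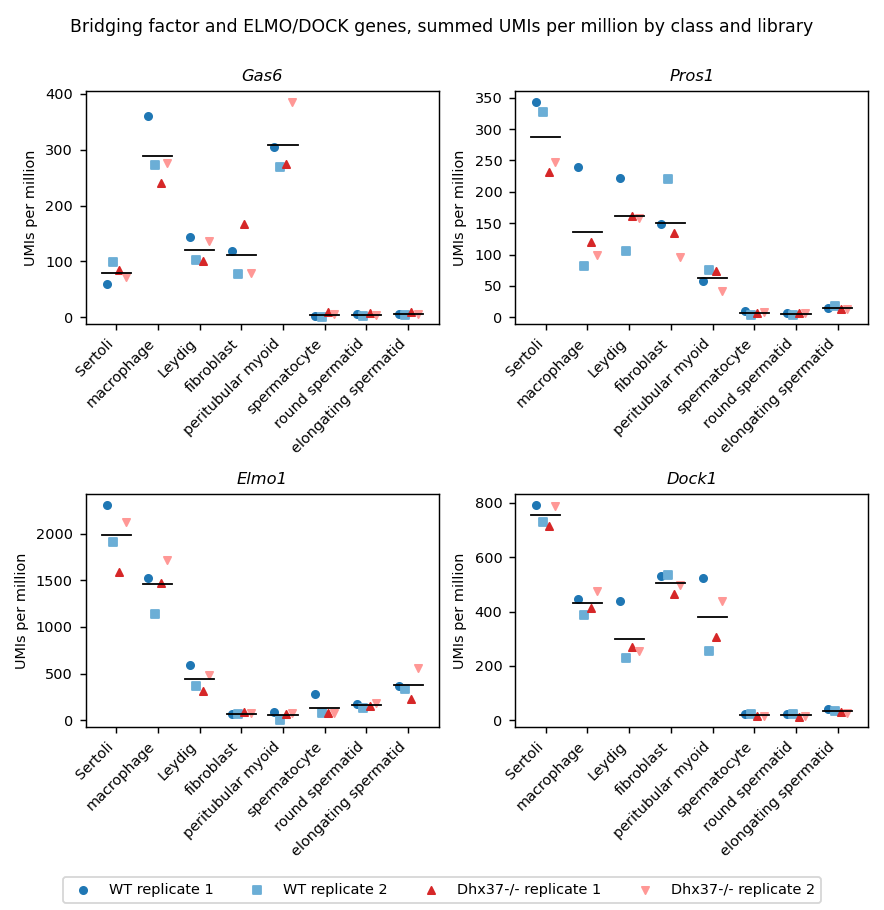
Levels of the bridging factors *Gas6* and *Pros1* and of *Elmo1* and *Dock1* in CPM, one point per library, by class and genotype. Among the tested somatic classes *Gas6* is lowest in Sertoli nuclei, and *Elmo1* is high in Sertoli nuclei and macrophages.

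Set directly against macrophages, Sertoli nuclei were higher in 5 of the 9 tested genes and lower in 3. Over all genes 47.7% differed, 18.5% as higher and 29.3% as lower in Sertoli nuclei, and the median log2 fold change was 0.77 over the 9 genes and -0.38 over all genes. The genes higher in Sertoli nuclei were *Tyro3* (adjusted p = 8.83e-10), *Pros1* (log2 fold change 1.04, SE 0.27, adjusted p = 0.00125), *Scarb1* (log2 fold change 0.97, SE 0.30, adjusted p = 0.00735), *Axl* (log2 fold change 0.87, SE 0.28, adjusted p = 0.0105) and *Dock1* (log2 fold change 0.77, SE 0.22, adjusted p = 0.00410). The genes lower in Sertoli nuclei were *Mertk* (log2 fold change -1.44, SE 0.27, adjusted p = 2.88e-05), *Gas6* (log2 fold change -1.97, SE 0.28, adjusted p = 1.08e-07) and *Stab1* (adjusted p = 1.11e-21). *Elmo1* gave 0.35 (95% interval -0.21 to 0.92, adjusted p = 0.303), and did not pass in a fit with library as a term, although the Sertoli value was above the macrophage value within each of the 4 libraries. It passed as higher in Sertoli nuclei without *Dhx37*-/- replicate 1 (log2 fold change 0.85) or replicate 2 (0.72), without the filter on low counts (0.72) and with classes taken from clusters (0.44). Macrophage markers summed to 382 to 483 CPM in Sertoli nuclei against 7658 to 10110 CPM in macrophages. In Sertoli nuclei 9 of the 10 markers had a UMI, *Itgam* was at 0, *Csf1r* was at 0 to 0.96 CPM, *Adgre1* at 0 to 1.99 CPM, and *Mrc1* made up 297 to 439 CPM of the sum. *Stab1* was at 6 UMIs in all Sertoli nuclei together.

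**Figure D3:**
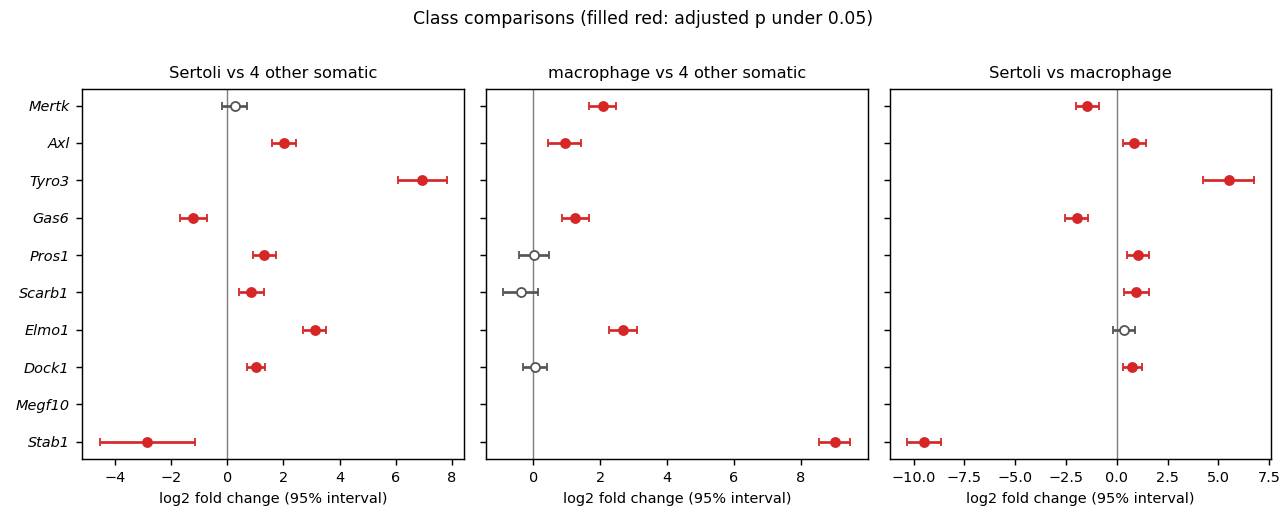
Log2 fold changes with 95% intervals for the tested genes in the contrasts of Sertoli nuclei and macrophages with the other somatic classes and with each other. *Megf10* was not tested. *Tyro3* is not drawn for macrophages against the other somatic classes, where edgeR gave 0.05 (adjusted p = 0.848). Filled points have an adjusted p under 0.05. The fitted values of *Tyro3* and *Stab1*, which are at or near 0 UMIs in some classes, depend on the prior count.

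Against germ cells the same genes stood far apart. Sertoli nuclei were higher than the mean of spermatocytes, round and elongating spermatids in 7 of the 9 tested genes, where 80.0% of all genes differed, 35.3% as higher and 44.7% as lower in Sertoli nuclei. The median log2 fold change was 4.84 over the 9 genes and -0.39 over all genes. *Mertk* did not exceed 6.2 CPM in a germ cell library, and its log2 fold change was 6.44 ± 0.24 (SE). The values were 5.02 ± 0.22 for *Axl*, 4.97 ± 0.17 for *Dock1*, 4.84 ± 0.20 for *Pros1*, 3.69 ± 0.24 for *Gas6* and 3.22 ± 0.21 for *Elmo1*. *Tyro3* also passed (adjusted p = 1.24e-20). *Scarb1* did not, at -0.15 (95% interval -0.61 to 0.31, adjusted p = 0.553), nor did *Stab1* (adjusted p = 0.0510). *Stab1* passed as lower in 9 of 13 alternatives (adjusted p over all 13 of 0.000760 to 0.253), among them DESeq2 and each fit without WT replicate 1, WT replicate 2 or *Dhx37*-/- replicate 2. Sertoli nuclei held 6 UMIs of *Stab1* and no tested germ cell library was above 6.69 CPM. Both sides were thus near 0, and no difference is read from these calls. *Scarb1* passed as lower without WT replicate 1 (-0.58, adjusted p = 0.0260) and with classes taken from clusters (-0.66, adjusted p = 0.000565). *Elmo1* also had 228 to 557 CPM in elongating spermatids, where *Mertk*, *Axl*, *Gas6* and *Stab1* stayed under 10 CPM.

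The remaining somatic classes had their own profiles. In Leydig nuclei 6 of the 9 tested genes passed, 3 in each direction, against 26.1% of all genes (18.2% higher, 7.90% lower). The other classes are averaged on the log scale. *Elmo1*, called higher, averaged 440 CPM in Leydig nuclei, below Sertoli nuclei (1981 CPM) and macrophages (1461 CPM). It was above fibroblasts (71.6 CPM) and myoid cells (57.0 CPM). Beside *Scarb1* and *Axl*, the calls for *Pros1* (0.55), *Elmo1* (0.63), *Dock1* (-0.48) and *Stab1* had adjusted p-values of 0.0320 to 0.0423. Without *Dhx37*-/- replicate 2 none of these 4 passed (adjusted p of 0.0664 to 0.941), and without each of the other libraries 1 or more of them were lost. *Mertk* gained a call as higher in Leydig nuclei without WT replicate 2 (0.60, adjusted p = 0.0251) and with clusters, and *Tyro3* one as lower with DESeq2 and with clusters. In fibroblasts 4 genes were lower and none higher (16.8% of all genes called, 6.39% lower): *Elmo1*, *Scarb1* (log2 fold change -1.56, SE 0.27, adjusted p = 2.13e-05), *Mertk* (log2 fold change -0.91, SE 0.24, adjusted p = 0.00533) and *Gas6* (log2 fold change -0.75, SE 0.23, adjusted p = 0.0140). *Axl* in fibroblasts, at 0.56 (adjusted p = 0.118), passed as higher without *Dhx37*-/- replicate 2 (0.81, adjusted p = 0.0133) and with classes taken from clusters (0.74, adjusted p = 0.0134). Without WT replicate 1 the adjusted p was 0.118 for *Mertk* and 0.168 for *Gas6*, and they were also lost without *Dhx37*-/- replicate 1 (*Mertk*, 0.0777) and replicate 2 (*Gas6*, 0.279) and, with log2 fold changes that hardly moved, with free RNA subtracted (-0.85, adjusted p = 0.05004, and -0.75, adjusted p = 0.0609). In myoid cells *Gas6* was higher and 6 genes were lower (19.9% called, 8.36% higher and 11.6% lower), with *Mertk* (log2 fold change -1.82, SE 0.29, adjusted p = 2.62e-06), *Pros1* and *Elmo1* among them. The remaining calls, *Scarb1*, *Dock1* and *Stab1*, were each lost without WT replicate 1 (-0.96, -0.50 and -2.97 on the log2 scale, beside -0.91, -0.65 and -3.48 with all libraries) and without *Dhx37*-/- replicate 1 (-0.74, -0.33 and -2.30), and the *Gas6* call was lost with free RNA subtracted (0.66, adjusted p = 0.0678).

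Per nucleus, thinned to 2000 UMIs so that depth could not set the shares, *Mertk* had a UMI in 38.0% of Sertoli and 67.5% of macrophage nuclei, *Axl* in 26.8% and 17.4%, and *Tyro3* in 17.4% and 0%. The *Axl* shares were 31.6%, 56.3%, 22.9% and 26% in the Sertoli nuclei of the 4 libraries and 7.92%, 16%, 14.9% and 29.5% in the macrophages, so in *Dhx37*-/- replicate 2 macrophages were above Sertoli nuclei. Round spermatids gave 0.445%, 0.375% and 0.117% for *Mertk*, *Axl* and *Tyro3*. Free RNA was not estimated for round spermatids, so these shares do not measure its background in Sertoli or macrophage nuclei. The thinning used 448 Sertoli and 357 macrophage nuclei and left out 35 and 89 with fewer UMIs. Before thinning, at median depths of 8234 UMIs in Sertoli and 2984 in macrophage nuclei, the shares for *Mertk* were 68.9% and 72.2%. *Stab1* had a UMI in 75.4% of thinned macrophage nuclei and in 0.446% of Sertoli nuclei. *Pros1* was found in 34.4% of Sertoli nuclei and 22.7% of macrophages. *Dock1* was found in 58.0% and 55.5%, with Sertoli nuclei above macrophages in replicate 1 of each genotype and below them in replicate 2 of each. *Elmo1* was found in 82.1% of Sertoli nuclei and 87.4% of macrophages, above in both WT libraries and below in both *Dhx37*-/- libraries, although its CPM was higher in Sertoli nuclei in all 4. No order of the classes is read from the *Dock1* and *Elmo1* shares. In the same draw at least 1 TAM receptor was found in 64.9% and 81.3% of WT and 59.3% and 60.9% of *Dhx37*-/- Sertoli nuclei. At least 2 receptors together were found in 17.5% and 31.3% of WT and 14.3% and 20.4% of *Dhx37*-/- Sertoli nuclei. In macrophages at least 1 was found in 76.2% and 60% of WT and 70.3% and 73.3% of *Dhx37*-/- nuclei. At least 2 were found there in 5.94% and 14% of WT and 12.9% and 20.95% of *Dhx37*-/- nuclei. The thinned shares come from 1 random draw, and those of WT replicate 2 rest on 16 Sertoli nuclei. The median Sertoli nucleus held transcripts of 3 to 3.5 of the 10 genes by library, and the median macrophage nucleus of 4 in each.

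For each gene except *Megf10*, the genes whose log2(CPM + 10) profile was most like it over 32 class and library sums were found among 15741 genes. These correlations are a description, since the points share libraries and the classes differ in depth. *Mertk* was most like *Zeb2*, a transcription factor of macrophages (r = 0.984), *Mospd2* (0.981) and *Stx7* (0.973). *Tyro3* was most like *Dmrta1* (r = 0.983) and *Slc27a6* (0.983), and *Stab1* was most like *Cbr2* (r = 0.996) and *Slc14a1* (0.992). *Eps8*, an actin regulator of the Sertoli cell junctions, was most like both *Pros1* (r = 0.970) and *Dock1* (0.975). *Axl* was most like *Bmpr2* (r = 0.950) and *Gas6* most like *Nek7* (r = 0.969). *Scarb1* (r = 0.886 with *Crls1*) and *Elmo1* (r = 0.898 with *Gm32036*) had looser matches.

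Of the 92 other genes of the pathway, 82 passed the filter. Against the other somatic classes 15 of these were higher and 38 lower in Sertoli nuclei, where 22.1% and 20.9% of all genes were, with a median log2 fold change of -1.02 beside -0.18 over all genes. In macrophages 43 were higher and 7 lower, where 26.9% and 11.6% of all genes were, with a median of 0.767 beside 0.29 over all genes. Values for single genes are log2 fold changes ± SE. The genes higher in Sertoli nuclei with the smallest p-values were *Bcar1*, a scaffold of integrin signalling (3.58 ± 0.27, adjusted p = 4.11e-15), *Itgb5*, a subunit of a receptor for the bridging factor MFG-E8 (2.01 ± 0.18, adjusted p = 1.55e-12), *Ctsl*, a lysosomal protease (1.88 ± 0.18, adjusted p = 7.62e-12), and *Dock5*, a relative of *Dock1* (2.18 ± 0.27, adjusted p = 6.02e-09). The lower ones were *Cd47*, the signal that keeps living cells from being eaten (-4.25 ± 0.27, adjusted p = 4.32e-17), the engulfment adaptor *Gulp1* (-5.82 ± 0.52, adjusted p = 8.90e-13), the lipid exporter *Abca1* (-2.71 ± 0.24, adjusted p = 1.01e-12) and *Rxra*, a nuclear receptor (-2.64 ± 0.31, adjusted p = 1.07e-09). In macrophages the complement genes *C1qc* (7.25 ± 0.22, adjusted p = 1.79e-28), *C1qa* (8.11 ± 0.26, adjusted p = 1.11e-27) and *C1qb* (7.2 ± 0.23, adjusted p = 1.11e-27) and the blood-cell relative of *Dock1*, *Dock2* (5.74 ± 0.20, adjusted p = 2.55e-26), led. In the macrophage contrast *Bcar1* was lower (-3.52 ± 0.68, adjusted p = 4.30e-05), as were *Gulp1* (-2.72 ± 0.54, adjusted p = 6.67e-05) and *Ptk2*, a kinase of focal adhesions (-1.16 ± 0.24, adjusted p = 1.15e-04). By role, of 23 tested other receptors and bridging factors 4 were higher and 12 lower in Sertoli nuclei, of 20 engulfment signalling genes 5 and 9, of 14 signals shown by dying or living cells 1 and 9, and of 25 genes for phagosome maturation and digestion 5 and 8. Against germ cells 36 of the 82 were higher and 19 lower in Sertoli nuclei (35.3% and 44.7% of all genes), the higher ones led by *Itgav* (5.11 ± 0.21, adjusted p = 3.03e-24) and *Lrp1* (4.92 ± 0.25, adjusted p = 1.96e-21), both uptake receptors.

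Loss of *Dhx37* was not followed by a detected change of any of the 8 tested genes within Sertoli nuclei, where *Megf10* and *Stab1* were too low to be tested. *Pros1* stood at 335 ± 10.8 CPM in WT and 240.1 ± 11.1 CPM in *Dhx37*-/- Sertoli nuclei (SD, n = 2 each), and *Tyro3* at 104 ± 14.8 and 86.6 ± 8.71 CPM. In these 2 of the 8 genes with enough counts both *Dhx37*-/- libraries were below both WT libraries, a pattern that 12.2% of all genes showed, and none had both above, as 27.1% of all genes did. The edgeR test called 0 of the 8 genes and 0 of 10637 genes overall (0.00%), with 801 genes at an unadjusted p under 0.05, and DESeq2 called 2 genes, none of the 10. The log2 difference for *Pros1* was -0.58 (95% interval -1.20 to 0.03) with an unadjusted p of 0.0624 and an adjusted p of 0.686. The others were -0.32 (95% interval -0.98 to 0.34) for *Tyro3*, -0.04 (95% interval -0.67 to 0.59) for *Mertk*, -0.23 (95% interval -0.86 to 0.40) for *Axl* and 0.03 (95% interval -0.69 to 0.76) for *Gas6*. They were 0.12 (95% interval -0.52 to 0.76) for *Scarb1*, -0.28 (95% interval -0.98 to 0.42) for *Elmo1* and -0.11 (95% interval -0.74 to 0.52) for *Dock1*. Each of these intervals includes changes in either direction, and with 2 libraries a group an exact permutation test could not go below p = 0.33. Of 4 lists of markers of other classes, 3 stood apart between the genotypes in the Sertoli sums: in WT and then *Dhx37*-/- libraries those of Leydig cells summed to 89.8 and 65.6 against 148 and 142 CPM, those of fibroblasts to 23.9 and 16.4 against 33.2 and 40.2 CPM, and those of macrophages to 483 and 451 against 382 and 420 CPM. Those of peritubular myoid cells overlapped, at 59.8 and 65.6 against 67.2 and 57.0 CPM. Their part in these values was not tested.

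No gene of the group passed the test within macrophages either. *Stab1* stood at 887 ± 98.8 CPM in WT and 1209 ± 125 CPM in *Dhx37*-/- macrophages. It was the 1 gene of 8 with enough counts whose *Dhx37*-/- libraries were both above both WT libraries (21.9% of all genes were), and none had both below (17.0%). Its log2 difference was 0.43 (95% interval -0.07 to 0.93, unadjusted p = 0.0833, adjusted p = 0.623). edgeR called 0 of 8484 genes (0.00%) and 0 of the 8, with 769 genes at an unadjusted p under 0.05, and DESeq2 called 12 genes. *Axl* gave 0.67 (95% interval -0.19 to 1.52), *Gas6* -0.33 (95% interval -0.88 to 0.23), *Pros1* -0.64 (95% interval -1.52 to 0.23), *Elmo1* 0.23 (95% interval -0.29 to 0.76) and *Mertk* -0.03 (95% interval -0.54 to 0.48). Sertoli markers summed to 175 and 201 CPM in WT and 409 and 372 CPM in *Dhx37*-/- macrophages, and Leydig markers to 169.5 and 81.4 against 317 and 308 CPM. Of the Sertoli marker sum in macrophages, *Trf* made up 92.2, 129, 225 and 236 CPM, while in Sertoli nuclei *Trf* was at 3.99 to 41.0 CPM. The part of these marker differences in the values was not tested. The difference between the genotype effects in Sertoli nuclei and macrophages, tested as an interaction, was called for 0 of 10668 genes (0.00%, with 427 at an unadjusted p under 0.05, and 1 gene by DESeq2). It was 0.12 (95% interval -0.84 to 1.07) for *Mertk*, -0.77 (95% interval -1.85 to 0.31) for *Axl* and 0.18 (95% interval -0.94 to 1.30) for *Pros1*, each with an adjusted p of 1.

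**Figure D4:**
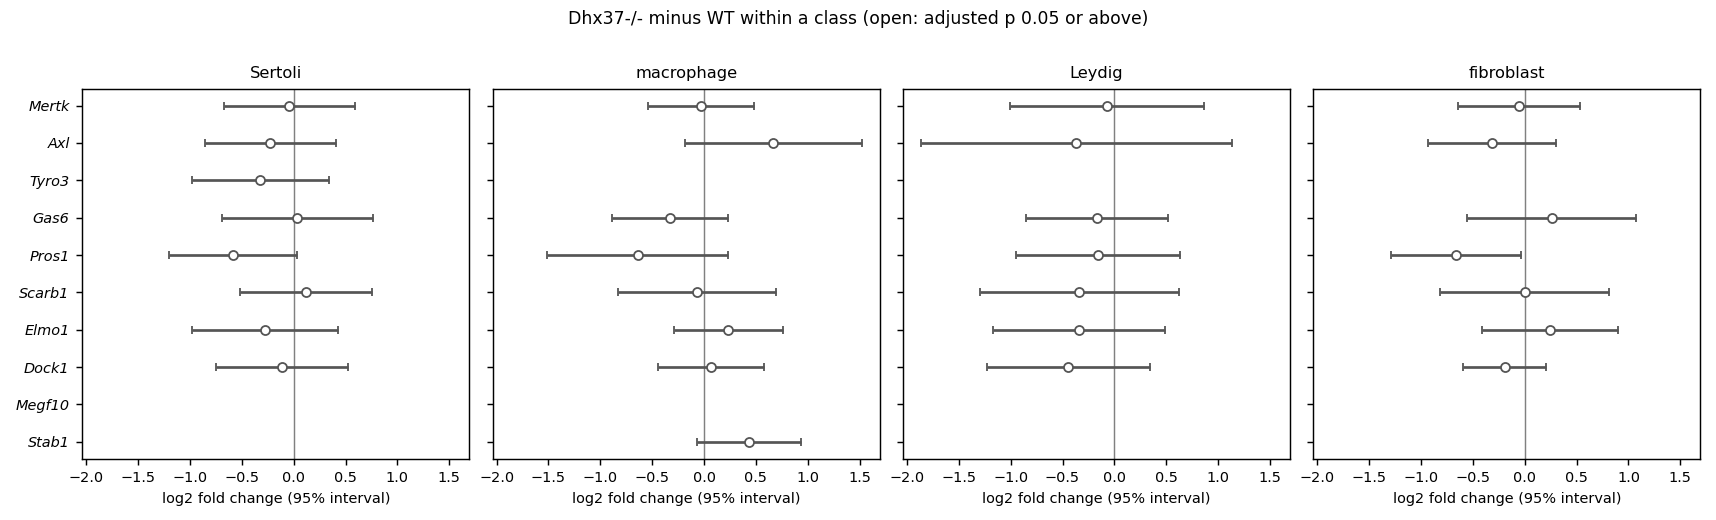
Log2 differences between *Dhx37*-/- and WT libraries with 95% intervals, by class. Every point is open, since no gene of the group had an adjusted p under 0.05, and most intervals cross 0.

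In the other classes too no tested gene of the group was called by edgeR. This held in Leydig nuclei, fibroblasts and myoid cells, with 7 of the 10 genes tested in each. There 0.00% of all genes were called, with 1045, 748 and 249 genes at an unadjusted p under 0.05 and 18, 5 and 1 genes called by DESeq2. It also held for 8 tested genes in round spermatids (0.0108% of all genes called), for 9 in elongating spermatids (0.0265%, with 0.0159% higher and 0.0106% lower) and for 4 in spermatocytes (13.2%, with 4.79% higher and 8.45% lower). In spermatocytes DESeq2 called 1 of these 4, *Elmo1* (adjusted p = 0.0320). *Mertk*, *Tyro3*, *Gas6*, *Pros1*, *Megf10* and *Stab1* were not tested there. In fibroblasts *Pros1* gave -0.66 (95% interval -1.29 to -0.03, adjusted p = 0.596). Of 7 genes with enough counts there, *Axl*, *Pros1* and *Dock1* were lower and *Elmo1* higher in both *Dhx37*-/- libraries (15.2% of all genes were lower and 22.0% higher). Free RNA made up 102%, 19.2%, 13.1% and 23.8% of the fibroblast *Elmo1* level in the 4 libraries, and its part was not tested. By the same measure 3 of 8 genes were lower and 2 higher in spermatocytes (24.3% and 34.9% of all genes). In elongating spermatids 3 of 10 were lower and 1 higher (15.7% and 21.3%), and in round spermatids 1 of 8 and 2 (14.4% and 23.3%). In round spermatids *Dock1* gave -0.73 (95% interval -1.35 to -0.10, adjusted p = 0.671). *Elmo1* in spermatocytes came nearest to the threshold, with 277, 82.3, 72.5 and 75.9 CPM and -1.43 (95% interval -2.46 to -0.40, adjusted p = 0.0655). Without WT replicate 1 the value was -0.11 (adjusted p = 0.893), and without WT replicate 2 it was -1.94 (adjusted p = 1.75e-07). Over all alternatives it ran from -2.51 to -0.11. Its highest value was in WT replicate 1, which also had the most *Elmo1* in free RNA (251, 91.9, 69.3 and 112 CPM in the 4 libraries), and the part of free RNA was not tested. *Scarb1* in spermatocytes was at 108, 115, 79.1 and 43.8 CPM, with -0.98 (95% interval -1.77 to -0.18, adjusted p = 0.0898). Of the other pathway genes none was called in Sertoli nuclei (43 tested) or macrophages (59 tested), and in spermatocytes 4 of 47 were higher, such as the eat-me signal *Calr* (1.56 ± 0.31, adjusted p = 0.0167), *Cdc42* (1.87 ± 0.46, adjusted p = 0.0304) and *Rac1* (2.31 ± 0.64, adjusted p = 0.0419), both GTPases of the actin response, and 2 were lower, *Itgb3* (-2.44 ± 0.58, adjusted p = 0.0284) and *Rhog* (-2.18 ± 0.61, adjusted p = 0.0437). None of these 6 calls held with classes taken from clusters (adjusted p of 0.269 to 0.742, and 3 genes called in all) or without *Dhx37*-/- replicate 2, where *Rhog* was not tested, the other 5 had an adjusted p of 0.138 to 0.446 and 26 genes were called in all. Sertoli markers summed to 87 to 92 CPM in WT and 208 to 279 CPM in *Dhx37*-/- spermatocytes.

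Summed over all kept nuclei without classes, most of the genes stood higher in *Dhx37*-/- libraries. *Mertk* was at 31.6, 10.4, 37.9 and 40.5 CPM, a ratio of *Dhx37*-/- to WT means of 1.87. *Axl* was at 10.4, 7.54, 17.4 and 15.99 CPM (ratio 1.86), *Tyro3* at 3.19, 1.08, 5.01 and 5.46 CPM (ratio 2.45) and *Stab1* at 12.6, 8.43, 20.5 and 17.2 CPM (ratio 1.79). *Gas6* was at 19.4, 7.35, 26.3 and 19.9 CPM (ratio 1.73), *Pros1* at 26.8, 14.5, 32.8 and 30.0 CPM (ratio 1.52) and *Dock1* at 71.8, 38.4, 80.4 and 82.1 CPM (ratio 1.48), and for *Gas6* the genotypes barely separated. WT replicate 2 was the lowest library for each of these 7 genes. Without it the ratios ran from 1.13 for *Dock1* to 1.64 for *Tyro3*, with 1.24 for *Mertk* and 1.19 for *Gas6*. Without WT replicate 1 they ran from 2.12 for *Dock1* to 4.84 for *Tyro3*, with 3.76 for *Mertk* and 3.14 for *Gas6*. In these 7 of the 10 genes both *Dhx37*-/- libraries were above both WT libraries, as in 36.0% of 23926 genes. *Scarb1* was lower in both (ratio 0.900, a pattern of 16.8% of genes), and *Elmo1* and *Megf10* overlapped. The share of kept nuclei in the Sertoli class moved the same way, at 0.60% and 0.23% in WT and 1.80% and 2.47% in *Dhx37*-/- libraries. The Leydig share was also higher in both *Dhx37*-/- libraries (2.21% and 1.00% against 3.83% and 3.45%), while the share of macrophages, which hold most somatic *Stab1*, overlapped (1.43% and 0.76% against 1.37% and 1.22%). In such sums alone fewer cells of a type and less RNA per cell, or more of both, cannot be told apart. Within Sertoli nuclei *Tyro3* was at 104 ± 14.8 CPM in WT and 86.6 ± 8.71 CPM in *Dhx37*-/- Sertoli nuclei, and *Pros1* was also lower in both *Dhx37*-/- libraries.

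**Figure D5:**
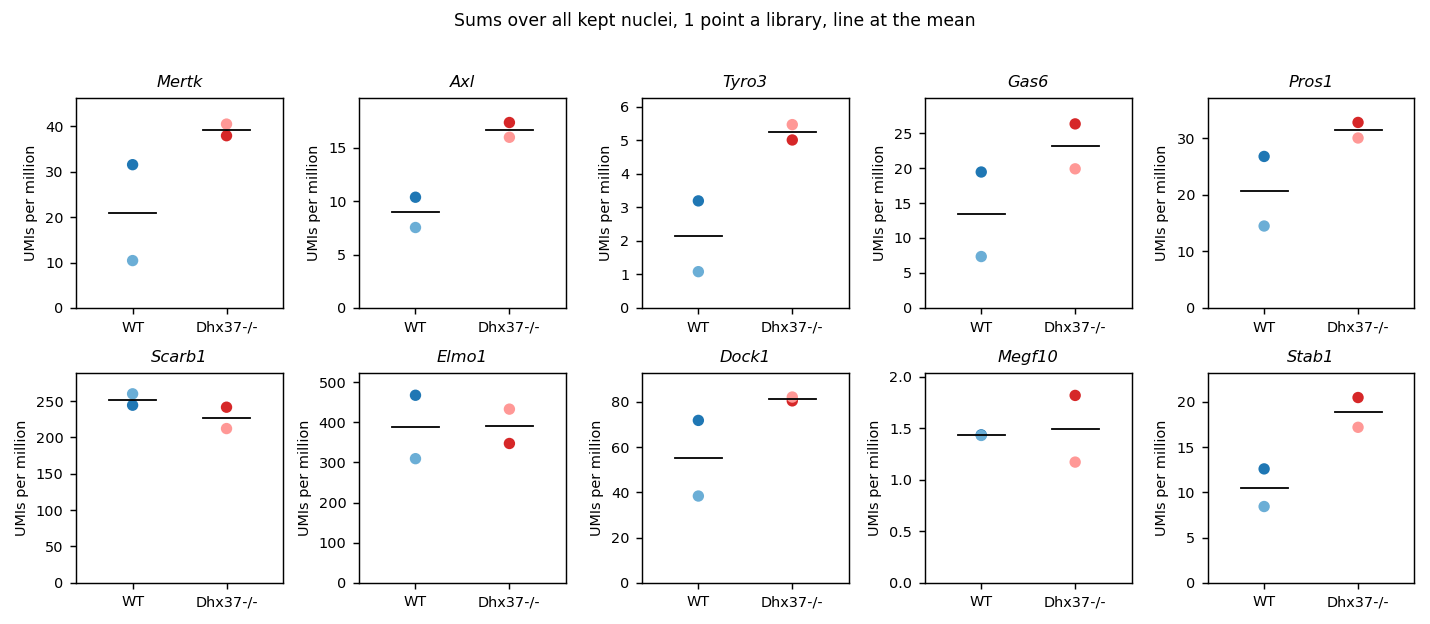
Levels of each gene in sums over all kept nuclei, in CPM, one point per library, by genotype. *Mertk*, *Axl*, *Tyro3*, *Gas6*, *Pros1*, *Dock1* and *Stab1* are higher in both *Dhx37*-/- libraries, and *Scarb1* is lower.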

How the data were processed

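Single-nucleus RNA-seq was analysed in 2 WT and 2 *Dhx37*-/- testis libraries. The deposited files hold raw UMI counts per gene and barcode, made by the authors with Cell Ranger (7.2.0 in the file headers). The sources used here name both mm39 and, in the submitters' processing notes, GRCm38 and mm10, so the build of the counts is not settled, and no coordinates were taken from the files. Whether intron reads were counted is not given in the sources used here.

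Barcodes were called as nuclei by a UMI cut set for each library, at 1017 and 926 in WT and 1603 and 1867 in *Dhx37*-/- libraries. Below the cut, barcodes with at least 500 UMIs were called if they differed from free RNA (ranks 45000 to 90000, FDR 0.01). The cut called 9721, 8114, 7796 and 9505 barcodes and the free RNA step 135, 234, 1357 and 908. The part of the unlike cuts in the class shares was not tested. Called barcodes were kept if they had 500 to 5000 genes, no fewer than 500 UMIs and a mitochondrial share not above 25%. Total counts per library ran from 51797891 to 75611263. Classes required at least 40% of a fixed marker list for somatic cells, 60% for spermatocytes and 75% for round spermatids, and for elongating spermatids more marker UMIs than the mean rate of the library would give (Poisson p under 0.0001), thresholds set after the data had been seen. The spermatocyte and spermatid lists were applied only to nuclei that met no somatic or spermatogonial threshold. A nucleus that met both a somatic and such a germ cell threshold thus stayed in its somatic class. One that met the fibroblast and myoid thresholds went to the class with the larger share of markers. Other nuclei in 2 or more classes (450) were left out. Of the Sertoli nuclei before that step, 93 were at the cut of 5 of 12 markers, 404 above it, and 194 lay 1 marker below. Scrublet called 4.21% to 4.59% of nuclei as doublets, which were kept and left out as an alternative. Only classes with at least 10 nuclei in every library were tested.

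UMIs were summed per class and library and tested with edgeR 4.0.16 (TMM, filterByExpr, glmQLFTest, R 4.3.3). Comparisons of classes had library as a term, and the main genotype and interaction tests had none. DESeq2 1.42.0 was an alternative. SEs were the absolute log2 fold change divided by the square root of the F statistic. The scripts were tested on simulated data. No 2 libraries of a group agreed within sampling noise (chi-square per degree of freedom 1.77 to 20.3). The labels give no batch or date. The members, gene lists and tests were chosen with earlier results of these data known. Named besides the members were, per comparison and direction, at most the 4 other pathway genes with the smallest adjusted p, and per member the 3 most alike genes.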

Additional observations from a re-analysis of the deposited data

How the results depend on the processing

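Single genes were recomputed under 13 alternatives in the comparisons of classes and 12 to 15 by genotype, since subtracting free RNA left the germ cell sums as they were and some alternatives filtered out a low gene. For single genes the call, and the direction where there was a call, was the same in 1708 cases, of which 149 had another sign with no call before or after (*Pros1* by genotype in macrophages ran from -1.18 to 0.44). A call was lost in 50, gained in 33 and turned in 1, *Dock1* in macrophages against the other somatic classes (0.05 to -0.39 with clusters in place of marker counts, cause not tested). Leaving out each library in turn, the members called ranged from 7 to 8 of a main 8 in Sertoli nuclei, 2 to 5 of 6 in Leydig nuclei, 4 to 5 of 5 in macrophages, 2 to 4 of 4 in fibroblasts, 4 to 7 of 7 in myoid cells, 8 to 9 of 8 for Sertoli nuclei against macrophages and 7 to 9 of 7 against germ cells. Members called were 2 in fibroblasts with free RNA subtracted, an alternative chosen after seeing the data, and 4 in myoid cells with DESeq2. DESeq2 size factors moved the median of all genes by -0.107 in the Sertoli, -0.169 in the macrophage, -0.13 in the Leydig, 0.33 in the myoid, -0.244 in the germ cell and -0.141 in the interaction contrast.

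All genes called between classes ranged, without single libraries, from 5354 to 7400 of 7255 for Sertoli nuclei, 4482 to 5722 of 6489 for macrophages, 2937 to 4530 of 4412 for Leydig nuclei, 1854 to 2749 of 2839 for fibroblasts, 1815 to 3246 of 3367 for myoid cells, 5890 to 7662 of 8060 for Sertoli nuclei against macrophages and 11390 to 14717 of 13519 against germ cells.

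For genotype the members called were 0 without any single library, except 0 to 1 in spermatocytes. There, 1 member was called without the filter on low counts, with DESeq2, without the upper limit on genes and with 1 more marker. All genes called without single libraries ranged from 0 to 305 in Sertoli nuclei (305 without WT replicate 2, 24 without WT replicate 1), 0 to 708 in Leydig nuclei, 9 to 272 in macrophages, 7 to 341 in fibroblasts, 0 to 25 in myoid cells, 26 to 2966 in spermatocytes, 1 to 1002 in round spermatids, 2 to 567 in elongating spermatids and 0 to 9 for the interaction. Without the filter on low counts they were 11 in Sertoli nuclei, 33 in Leydig nuclei, 69 in fibroblasts, 6 in myoid cells, 2634 in spermatocytes, 61 in round and 0 in elongating spermatids. With DESeq2 they were 2, 18, 12, 5 and 1 in Sertoli nuclei, Leydig nuclei, macrophages, fibroblasts and myoid cells, 112 in round and 85 in elongating spermatids, and 1 for the interaction. Clusters gave 50 in macrophages, 1 in myoid cells, 3 in spermatocytes and 0 in elongating spermatids. No upper limit on genes gave 2 in fibroblasts, 2884 in spermatocytes and 0 in elongating spermatids, leaving out doublets 5 in fibroblasts, 12 in myoid cells and 0 in elongating spermatids, 1 more marker 806 in spermatocytes, and in elongating spermatids DESeq2 size factors gave 0 and the filter on genes and UMIs alone 13.

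The replicate numbers are only shared numbers: deviations of same-numbered libraries correlated at -0.208 (macrophages) to 0.0882 (myoid cells), and -0.0241 in Sertoli nuclei. The replicate block gave 1 gene in macrophages, 27 in fibroblasts, 916 in spermatocytes, 6 in round and 19 in elongating spermatids, and called no member. Crossed pairing, chosen after seeing the data, gave 84 genes in Leydig nuclei, 79 in macrophages, 2758 in spermatocytes (2 of them members), 18 in round and 21 in elongating spermatids. The 19 WT replicate 2 Sertoli nuclei limit the depth of every Sertoli value.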

Other observations

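The classes too small to test carried several of the genes. Endothelial nuclei (62 and 14 in WT, 30 and 5 in *Dhx37*-/- libraries) had *Elmo1* at 1545, 1893, 1525 and 1131 CPM and *Dock1* at 761, 824, 618 and 714 CPM. *Mertk* stood at 159, 156, 107 and 119 CPM and *Scarb1* at 233, 489.9, 128 and 595 CPM in the same nuclei, while *Axl* had 1, 0, 0 and 0 UMIs. *Stab1* in endothelial nuclei was at 28.4, 111, 256 and 298 CPM, above every tested class except macrophages, and rested on 5, 5, 24 and 5 UMIs. T cell nuclei (11 and 6 in WT, 26 and 25 in *Dhx37*-/- libraries) had *Elmo1* at 1617, 1287, 1298 and 1595 CPM but held only 1, 0, 1 and 0 UMIs of *Mertk* and 0, 0, 0 and 1 of *Dock1*.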
